A study of Drosophila melanogaster with 60 samples.

Results

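Peaks of the Hox transcription factor Ultrabithorax (Ubx) in the late embryonic mesoderm of Drosophila melanogaster were set against peaks of 2 histone marks, H3K27ac and H3K27me3, in the same tissue at the same stages, 14 to 17. The members were chosen by their sample labels, with earlier results of these data known, and make up 6 of the 60 samples of the series. They are Ubx lists R (9865 peaks) and S (12237 peaks), H3K27ac lists 2 (85449 peaks) and 3 (4721 peaks), and H3K27me3 lists 2 (37052 peaks) and 3 (3957 peaks). All 6 libraries came from embryos of the genotype twi-INTACT, called wild type here, a name that stands for a nuclear tag expressed through the mesodermal gene twi, by which nuclei are captured from whole embryos (INTACT). Ubx was precipitated with a guinea-pig antibody made by the submitters and the marks with commercial antibodies from Abcam, and libraries were made with ThruPLEX amplification. Other lists served for comparison: Ubx in late neuronal nuclei (elav>INTACT, lists R and S), Ubx in early mesoderm of stages 10 to 13 (twi-INTACT, lists R, R2 and S), and, from late mesoderm of control embryos, the Polycomb recruiter Pho (lists 1 to 3) and both marks (lists 1 to 3). The control embryos carried twi-INTACT together with UAS-Nslmb, a degrader of GFP-tagged proteins, and GFP-Ubx, and their labels name no driver for the UAS transgene. Each mark list of a number has 1 input of the same number in the labels, shared by both marks. Whether an input entered the peak calling is not given in the sources used here.

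Ubx binds DNA through a homeodomain, often together with the cofactors Exd and Hth, and sets the identity of thoracic and abdominal segments in ectoderm and mesoderm. H3K27ac is found on active promoters and enhancers. H3K27me3 is written by Polycomb repressive complexes, which keep Hox genes and many developmental regulators silent outside their domains, and 1 lysine cannot carry both groups at a time. In nuclei pooled from a tissue, a mark on fewer nuclei and less of it per nucleus cannot be told apart, and 2 overlapping peaks need not come from the same nuclei.

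The lists differed more within a mark than between the marks. H3K27ac list 2 covered 25.3 Mb and list 3 covered 1.01 Mb, and H3K27me3 list 2 covered 7.76 Mb and list 3 covered 1.0 Mb, so a single peak has very unequal chances of meeting them. Most peaks of list 3 overlapped list 2 for both marks, 73.3% for H3K27ac and 62.1% for H3K27me3, against 31.5% and 12.5% at shifted positions. Ubx R and S covered 1.78 and 2.09 Mb with median widths of 145 and 142 bp. They had only 11.6% of the peaks of R and 9.61% of those of S in common, against 3.21% and 2.59% at shifted positions. Their median fold enrichment, the authors' value over background, was 2.05 and 2.38. Repeat peaks, with at least 0.5 of their bases soft-masked in the reference, made up 13.2% of Ubx R and 9.25% of Ubx S. The H3K27ac lists did not set mesoderm apart from other tissues: list 2 had a peak within 1 kb of the start site (TSS) of 10 of 12 mesoderm and muscle markers, all but twi and tin, of 6 of 8 neuronal, 3 of 3 glial, 4 of 5 hemocyte, 3 of 3 fat body, 2 of 2 gut and 2 of 3 epidermal markers, where 88.4% of all genes had one. List 3 marked 2 of 12 (Act57B and Mlc2), 0 of 8 neuronal, 0 of 3 glial, 0 of 5 hemocyte, 1 of 3 fat body (Lsp2), 0 of 2 gut and 0 of 3 epidermal markers, where 21.9% of all genes had a peak. H3K27me3 marked its textbook targets: all 8 Hox gene regions held a peak of list 2 and of list 3, where 65.8% and 7.7% of all genes did, and it covered on average 34.4% (list 2) and 11.2% (list 3) of them, against 4.37% and 0.439% of all gene regions. The peaks inside 2 lists used for comparison carry the name of another replicate (Ubx early R2 is named S, and H3K27ac control 3 is named R2), and the labels were followed. Nothing states that replicates came from separate embryo collections, so p-values measure the spread between these lists, which may be technical.

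The 5 sequences below show what a Ubx peak of each class looks like at the level of bases. Each comes from a region where a peak of Ubx R overlaps one of Ubx S, under 0.5 soft-masked and of the same class by mark lists 2 and 3. The joined span of both peaks is printed, but long spans were cut, as in the Ubx intron, where 285 bp are given. The Ubx intron was added as a region of a Hox gene and not for its fold. The others were taken from those with the highest fold by a fixed rule. They are the plus strand of dm6, 5′ to 3′, as given by RefSeq. Capitals mark TAAT and ATTA, the homeodomain core on either strand. The Ubx intron at chr3R:16703939-16704223 lies in the gene of the factor itself and was marked by H3K27me3 only, with folds of 2.00 in R and 2.46 in S. The erm intron at chr2L:1968652-1968843, in a zinc-finger gene of neural progenitors, was also marked by H3K27me3 only (folds 2.02 and 2.40). The region at chr3L:16955886-16956180, in an intron within the regions of the cuticle gene Cpr73D and the mitochondrial enzyme gene Ogdh, was marked by H3K27ac only (folds 2.11 and 2.46). The X region at chrX:23205212-23205511 carried both marks (folds 2.73 and 4.11) and overlaps annotated ribosomal RNA pseudogenes. The exon at chr3R:14101108-14101251, in the neuropeptide receptor gene PK1-R, carried neither mark (folds 2.46 and 2.47).
Ubx intron: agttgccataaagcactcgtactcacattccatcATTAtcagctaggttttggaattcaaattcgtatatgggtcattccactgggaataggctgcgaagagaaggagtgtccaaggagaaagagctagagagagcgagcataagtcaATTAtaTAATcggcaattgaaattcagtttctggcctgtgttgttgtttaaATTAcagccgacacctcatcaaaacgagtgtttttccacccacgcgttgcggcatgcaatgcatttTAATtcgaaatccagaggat
erm intron: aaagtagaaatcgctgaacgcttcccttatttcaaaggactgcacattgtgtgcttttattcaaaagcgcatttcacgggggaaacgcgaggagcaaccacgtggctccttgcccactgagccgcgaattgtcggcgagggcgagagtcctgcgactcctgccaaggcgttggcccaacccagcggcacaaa
Cpr73D and Ogdh: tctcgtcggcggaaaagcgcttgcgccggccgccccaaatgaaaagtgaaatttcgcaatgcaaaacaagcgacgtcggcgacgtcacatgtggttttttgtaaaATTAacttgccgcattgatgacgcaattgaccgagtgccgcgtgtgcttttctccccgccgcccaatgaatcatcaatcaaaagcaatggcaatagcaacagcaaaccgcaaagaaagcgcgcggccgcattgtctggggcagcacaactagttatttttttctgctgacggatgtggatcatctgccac
X region: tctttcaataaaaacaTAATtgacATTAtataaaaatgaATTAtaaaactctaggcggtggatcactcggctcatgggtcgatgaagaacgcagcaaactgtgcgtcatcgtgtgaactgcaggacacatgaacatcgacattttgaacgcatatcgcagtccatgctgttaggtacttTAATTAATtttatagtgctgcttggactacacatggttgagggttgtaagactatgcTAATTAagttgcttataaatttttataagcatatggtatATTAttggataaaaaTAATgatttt
PK1-R exon: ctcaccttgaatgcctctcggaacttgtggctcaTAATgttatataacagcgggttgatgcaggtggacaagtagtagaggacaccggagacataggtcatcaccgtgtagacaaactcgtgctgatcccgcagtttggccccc

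The Ubx intron holds 5 copies of the core and 2 copies of GAGAG, the X region 10 copies of the core, and the erm intron none. None of the 5 holds TGATTTAT or TGATTAAT on either strand, which are Exd and Hox composite motifs.

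Ubx peaks overlapped both marks more often than the same peaks shifted along their chromosome arm. For the shifted values every peak was moved by 100 evenly spaced distances around its arm, which keeps its width and spacing, and an overlap of 1 bp counted. Of the peaks of Ubx R, 39.95% overlapped H3K27ac list 2 (95% Wilson interval 38.99 to 40.9), against 29.5% at shifted positions (range over shifts 28.2 to 30.5). Of the peaks of Ubx S, 38.9% did (38.1 to 39.8), against 29.3% shifted (28.1 to 30.6). Both lists were thus enriched 1.35-fold and 1.33-fold at acetylated positions of list 2. With the short H3K27ac list 3 the shares were 5.45% of R (5.02 to 5.91) and 4.95% of S (4.58 to 5.35), against 1.38% and 1.36% shifted. The enrichment there was 3.96-fold and 3.63-fold. With mark lists trimmed to equal covered length by their best-scored peaks, H3K27ac list 2 gave 5.07-fold and 4.63-fold and list 3 gave 3.96-fold and 3.65-fold, so the order of the lists turned.

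H3K27me3 gave the same picture with somewhat larger folds. Of the peaks of Ubx R, 21.4% overlapped H3K27me3 list 2 (20.6 to 22.2), against 10.9% shifted (9.97 to 11.8), and of Ubx S 18.6% did (17.9 to 19.3), against 10.7% shifted (9.94 to 11.5). With H3K27me3 list 3 it was 5.85% of R (5.41 to 6.33) and 5.01% of S (4.64 to 5.41), against 1.27% and 1.25% shifted. These are 1.97-fold and 1.74-fold enrichments with list 2 and 4.61-fold and 4.0-fold enrichments with list 3. Without repeat peaks the list 3 enrichments were smaller, at 2.33-fold and 2.36-fold for H3K27ac and 2.53-fold and 2.33-fold for H3K27me3, and those with list 2 were 1.23-fold and 1.24-fold for H3K27ac and 1.55-fold and 1.41-fold for H3K27me3. In all 8 pairs of a Ubx list and a mark list the observed share lay above the highest of the 100 shifts. The intervals cover counting error only.

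**Figure D1:**
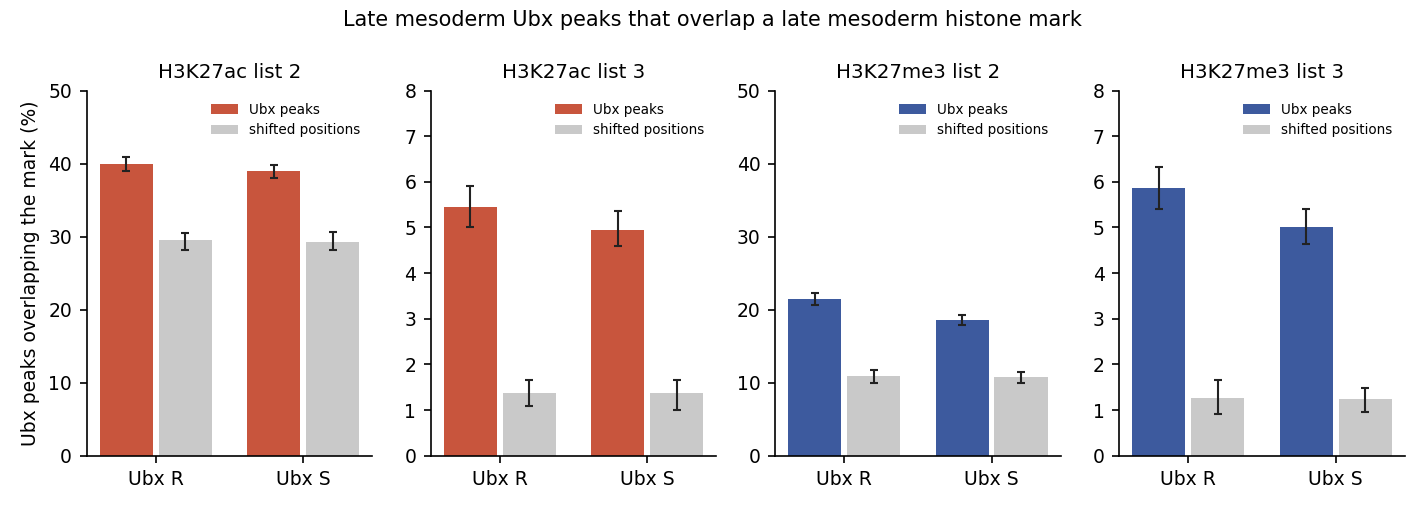
Share of late mesoderm Ubx peaks (percent, y axis) overlapping each H3K27ac and H3K27me3 list by at least 1 bp (coloured, bars: 95% Wilson interval), beside the mean over 100 shifts along the chromosome arm (grey, bars: lowest and highest shift). The coloured bars lie above the grey range in all 8 pairs, and the y axis of the list 3 panels ends lower because those lists are short.

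As log2 of observed over shifted, averaged over the Ubx lists, the overlap was 1.17 ± 1.06 for H3K27ac and 1.5 ± 0.859 for H3K27me3 (SD, n = 2 mark lists each). Without repeat peaks the values were 0.77 ± 0.652 and 0.92 ± 0.507. With mark lists trimmed to equal length they were 2.10 ± 0.247 and 2.27 ± 0.233. The difference of H3K27ac minus H3K27me3 was -0.32, and an exact two-sided permutation test over the mark lists gave p = 0.667, where 0.333 is the smallest p that 2 lists against 2 allow. Within list number 2 the difference was -0.47 and within number 3 it was -0.18, so the value for H3K27me3 was the higher under both numbers. With trimmed lists the difference was -0.17 (exact permutation p = 0.667). The control mark lists gave differences of 0.014, 0.15 and 0.27 under numbers 1 to 3, all the other way, though that of number 1 was near 0. Wild type minus control was -0.47 (-0.32 ± 0.202 in wild type, n = 2, and 0.15 ± 0.130 in control, n = 3; exact permutation p = 0.1, which is the smallest that 2 against 3 allow). Control lists covered 7.71 to 26.9 Mb for H3K27ac and 8.58 to 21.4 Mb for H3K27me3, and what part this length has in the difference was not tested.

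Coverage by the called mark peaks fell within 500 bp of Ubx midpoints. Such a fall is expected from narrow mark peaks, whose median widths were 193 bp (H3K27ac list 2) and 163 bp (H3K27me3 list 2). It does not show how far a mark extends. The midpoint of a Ubx R peak was covered by H3K27ac list 2 in 29.5% of peaks, and positions 500 bp away in 20.8%, close to the 20.1% found 10 kb away. Around Ubx S these values were 28.4%, 22.1% and 20.8%. H3K27me3 list 2 covered 14.9% of the midpoints of R and 8.90% of positions 500 bp away, against 7.49% 10 kb away. For S these values were 12.8%, 8.55% and 7.63%. Most of the excess at the midpoint was thus gone at 500 bp, where both marks still lay slightly above their level at 10 kb. Without repeat peaks this remainder was absent for H3K27ac around R (19.2% against 19.6%) and for H3K27me3 around S (6.83% against 6.88%). It stayed for H3K27ac around S (20.9% against 20.3%) and for H3K27me3 around R (6.96% against 6.47%). Without repeat peaks the midpoints stood at 25.3% and 25.5% for H3K27ac list 2 and at 10.2% and 9.11% for H3K27me3 list 2.

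**Figure D2:**
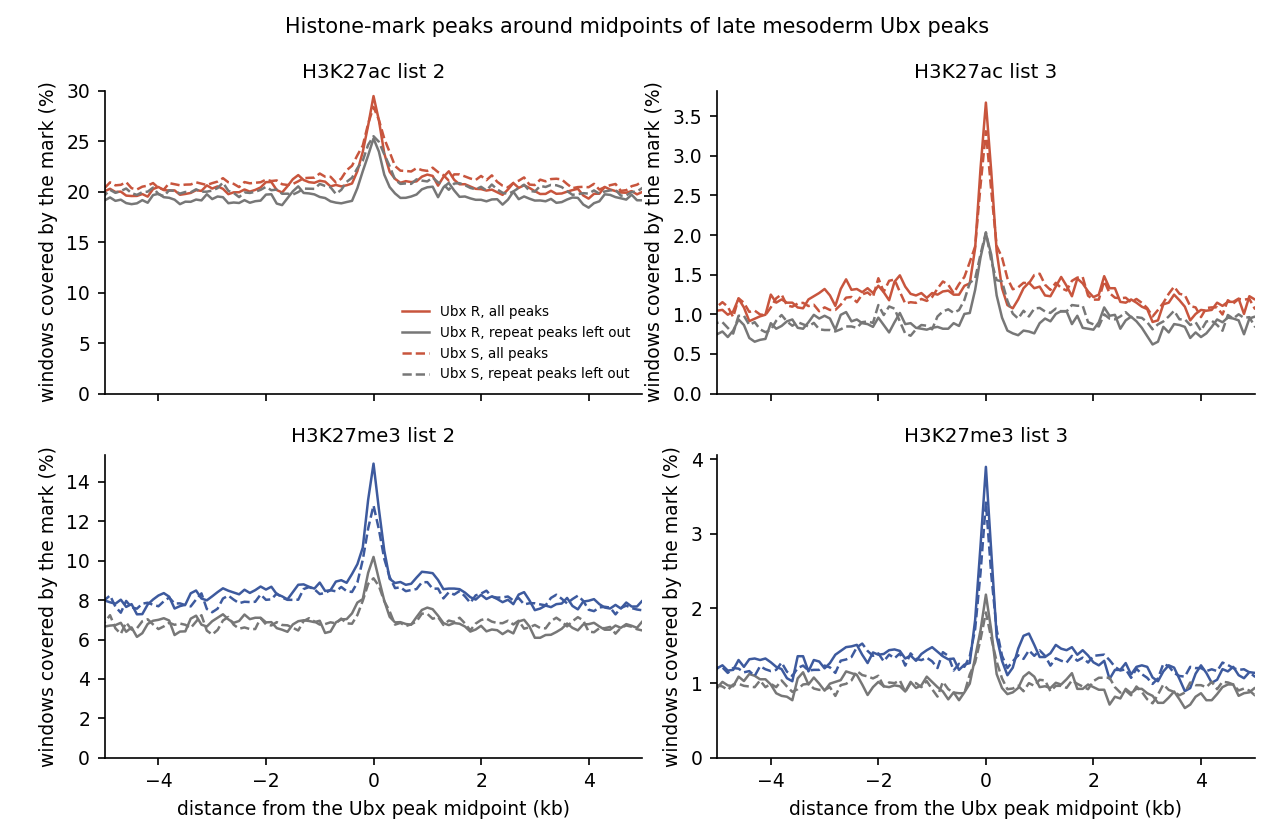
Percent of windows covered by a mark list (y axis) at each distance from the midpoints of late mesoderm Ubx peaks (x axis, kb), for all peaks (coloured) and without repeat peaks (grey), Ubx R solid and Ubx S dashed. Coverage is highest at the midpoint in every panel and has lost most of its excess at 500 bp, and the grey lines have the lower summit.

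Each Ubx peak was put in 1 of 4 classes, counting a mark where either of its lists overlapped. The largest class carried neither mark, with 4853 peaks of R (49.2%) and 6219 of S (50.8%), against 63.0% and 63.2% at shifted positions. H3K27ac alone was found on 2789 peaks of R (28.3%) and 3620 of S (29.6%), against 25.7% and 25.6% shifted. H3K27me3 alone was found on 982 (9.96%) and 1155 (9.44%), against 7.14% and 7.13% shifted. The class that stood farthest above its shifted share was that with both marks, with 1233 peaks of R (12.5%) and 1239 of S (10.1%), against 4.15% and 4.01% shifted. With the lists of number 3 alone, both marks lay on 2.79% of R and 2.20% of S, against 0.130% and 0.115% shifted. The marks also met each other beyond shifted positions: 12.7% of H3K27me3 list 3 overlapped H3K27ac list 3, against 1.61% shifted, and 35.8% of H3K27me3 list 2 overlapped H3K27ac list 2, against 31.3% shifted.

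The peaks with both marks were of another kind than the rest. Repeat peaks made up 49.1% of them in R and 44.1% in S, while the other classes held 5.24% to 9.67%. They were also shared between libraries: 48.0% of those in R and 49.3% of those in S overlapped a peak of the other late mesoderm Ubx list, against 4.07% to 10.2% in the other classes, and 29.7% and 29.0% overlapped a late neuronal Ubx peak, against 0.547% to 2.44%. They lay far from genes, with 62.2% and 56.3% between genes and a median distance to the nearest TSS of 22932 and 14550 bp, against 3147 to 7624.5 bp in the other classes. The X chromosome held 19.6% and 16.9% of them, but 5.44% of all peaks of R and 5.67% of all of S. Annotated ribosomal RNA genes and pseudogenes were overlapped by 15 peaks of R and 15 of S, of which 10 and 11 carried both marks. With repeat peaks left out, both marks of number 2 lay on 6.66% of R and 5.71% of S, against 3.74% and 3.70% shifted, and those of number 3 on 0.724% and 0.540%, against 0.116% and 0.106%. Without repeat peaks, 21.5% and 18.5% of the peaks with both marks overlapped the other Ubx list, against 3.89% to 8.79% in the other classes.

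Single stretches near the centromeres held many of them. The 100 kb of chr3L:24600001-24700000 held 62 and 79 peaks with both marks in R and S, out of 63 and 81 Ubx peaks there. The first 100 kb of 3R held 49 and 43 out of 54 and 48, and chrX:23200001-23300000, where ribosomal RNA units are annotated, 24 and 25 out of 27 and 29. In these 3 stretches nearly all Ubx peaks carried both marks. By arm, the X and Y stood apart: both marks lay on 45.1% of R and 30.2% of S peaks on X and on 44.0% and 52.2% on Y, against 6.70% to 11.4% on the 4 large autosome arms. Ubx peaks were also sparser on X, with 22.8 and 29.4 per Mb, against 80.4 to 108 per Mb on those arms.

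**Figure D3:**
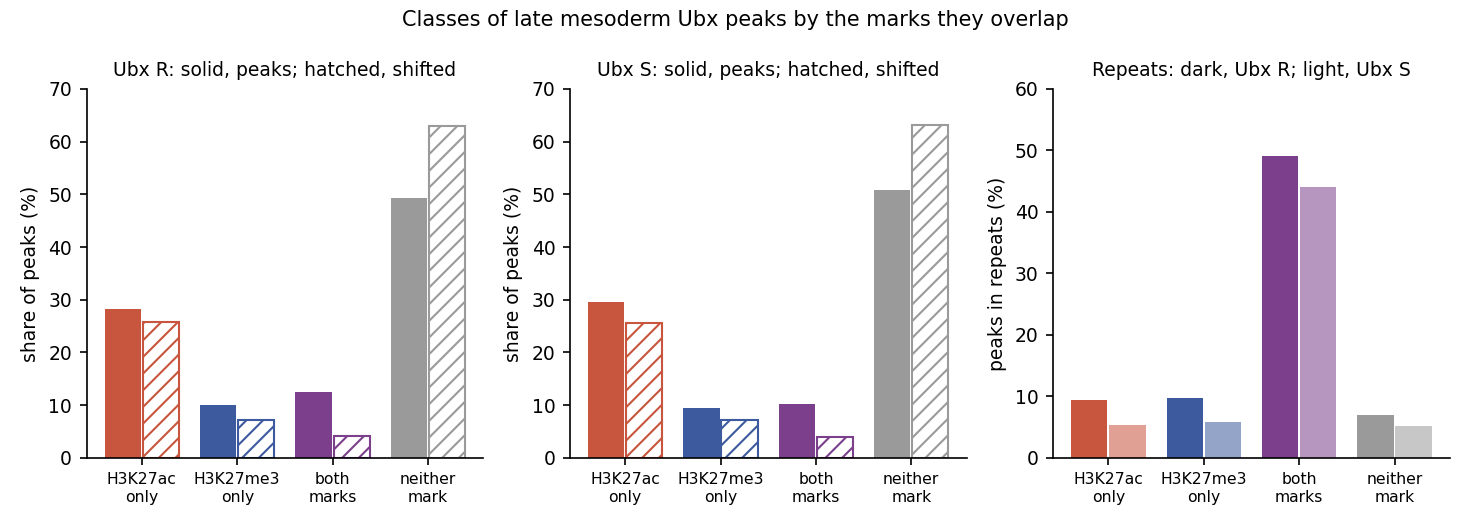
Left and middle, share of Ubx R and Ubx S peaks in each class (percent; solid, peaks; hatched, mean over shifts). Right, percent of the peaks of each class that are repeat peaks (dark, R; light, S). Both marks together are the class farthest above its shifted share, and 49.1% and 44.1% of its peaks are repeat peaks.

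The H3K27ac-only and H3K27me3-only classes differed in where they lay. Of the H3K27ac-only peaks, 24.9% in R and 27.8% in S were within 1 kb of a TSS, against 9.67% and 11.4% of the H3K27me3-only peaks and 12.7% and 14.5% of those with neither mark. Shifted peaks of these classes, over 10 of the shifts, gave 24.2% and 25.2%, 12.1% and 12.4%, and 13.5% and 13.7%, so peaks and shifted peaks of a class lay near start sites about equally often. H3K27me3-only peaks were more often between genes, at 45.6% and 38.6%, against 23.9% and 19.4% of H3K27ac-only peaks. Shifted peaks of these classes gave 37.5% and 38.1%, against 23.2% and 22.6%, so most of this contrast is also found at shifted positions. The median fold hardly differed between the 4 classes, at 2.01 to 2.06 in R and 2.35 to 2.38 in S. The 90th percentile of fold was higher for peaks with both marks, at 2.53 in R and 3.32 in S. In the other classes it was 2.23 to 2.25 in R and 2.66 to 2.68 in S. Peaks shared with all 3 Pho lists were 5.02% and 5.33% of the H3K27ac-only, 5.91% and 5.45% of the H3K27me3-only and 3.17% and 3.14% of the unmarked class, against 18.3% and 18.0% of peaks with both marks.

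The homeodomain core was less frequent in Ubx peaks than beside them. TAAT, on either strand, was found in 75.2% of the 200-bp windows centred on peaks of R and in 73.3% of those of S, against 81.2% and 80.4% in windows 1 kb to either side and 80.6% of all 200-bp windows of the arms. The longer Hox motif TTAATTA was in 6.36% and 6.5% of peaks, against 8.90% and 8.96% beside them and 8.16% of all windows. The composite motifs TGATTTAT and TGATTAAT were in 1.82% and 1.90%, and 0.893% and 1.01% of peaks, against 2.15% and 1.36% of all windows. GAGAG, bound by GAGA factor, was in 22.8% and 23.7%, against 21.5% of all windows, and GCCAT, the core of the Pho site, in 39.8% and 40.2%, against 35.1%. GCCAT was thus more frequent in peaks than beside them in both lists, at 35.04% and 36.3% there. By class, without repeat peaks, TAAT was in 72.5% and 71.2% of H3K27ac-only, 73.5% and 72.5% of H3K27me3-only and 76.1% and 74.3% of unmarked peaks. A match is a description of letters and not a binding site, and TAAT is part of TTAATTA and TGATTAAT.

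Late mesoderm Ubx was compared with the lists most like it by the same log2 of observed over shifted overlap, averaged over the 2 wild-type lists of a mark. With H3K27ac the values were 1.21 and 1.14 for Ubx R and S, against 2.46 and 2.87 for late neuronal Ubx R and S, 2.00, 0.72 and 1.37 for early mesoderm Ubx R, R2 and S, and 0.65, 0.54 and 0.57 for Pho 1 to 3. With H3K27me3 they were 1.59 and 1.40, against 3.13 and 3.59, 2.50, 0.85 and 1.58, and 0.69, 0.67 and 0.62 in the same order. Both late mesoderm lists lay below both late neuronal lists, within the range of the early mesoderm lists, and above all 3 Pho lists, for both marks of wild type. This order largely followed list length, with higher values in shorter lists. Early mesoderm Ubx R, R2 and S hold 3015, 44627 and 9415 peaks, and Pho 1 to 3 hold 53805, 53697 and 61534. What part list length has in these comparisons was not tested. The differences were -1.5 and -1.87 from late neuronal Ubx (exact permutation p = 0.333 each, adjusted p = 0.5), -0.19 and -0.15 from early mesoderm Ubx (exact p = 0.7 and 0.9, adjusted p = 0.84 and 0.9) and 0.59 and 0.84 from Pho (exact p = 0.1 each, adjusted p = 0.3), for H3K27ac and H3K27me3 in turn. None of the 6 comparisons can reach 0.05, since the smallest p is 0.333 for 2 lists against 2 and 0.1 for 2 against 3. The late neuronal lists hold 1336 and 936 peaks, of which 36.6% and 41.0% are repeat peaks. Without repeat peaks the differences from them were -1.01 and -1.27, and those from Pho 0.25 and 0.36. With the control mark lists, which share the genotype of the Pho libraries, the differences from Pho were 0.096 and 0.036 (exact permutation p = 0.2 and 0.3, above the smallest possible p). Those from late neuronal Ubx were -0.75 and -0.74 (exact permutation p = 0.333 each). Without early list R the differences from early mesoderm were 0.13 and 0.28, so their direction turns without that list of 3015 peaks.

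Ubx peaks of both lists fell in 2632 of 13968 protein-coding gene regions, which run from 2 kb upstream of the TSS to the end of the gene (18.8%). A gene was counted in a class when each Ubx list had a peak of that class in its region, and a gene may be in several classes. H3K27ac-only peaks were found in 933 genes (6.68% of all and 35.4% of the bound genes), H3K27me3-only peaks in 168 (1.2% and 6.38%), peaks with both marks in 171 (1.22% and 6.5%) and unmarked peaks in 1276 (9.14% and 48.5%). The class depends on gene length: H3K27me3-only peaks were found in 17.0% of the 658 longest bound genes (from 28573 bp) and in 1.52% of the 658 shortest (up to 4970 bp), and H3K27ac-only peaks in 51.4% and 25.8%. Genes with H3K27me3-only peaks had a median region of 47232 bp, against 16095 bp with H3K27ac-only peaks.

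Among the gene lists, Hox genes had the largest share of bound members with H3K27me3-only peaks. All 8 were bound, where 18.8% of all genes were, but their median region was 32563 bp, against 4164.5 bp over all genes. pb, Scr, Antp, Ubx and Abd-B (5 of 8, where 6.38% of all bound genes and 17.0% of the 658 longest had such peaks) carried H3K27me3-only peaks in both lists. H3K27ac-only peaks in both lists were found in Antp alone, and peaks with both marks in Antp and Ubx. The 8 regions held 39 peaks of R and 53 of S, of which 3 in each list overlapped a peak of the other, and their folds of 1.94 to 2.35 in R and 2.13 to 2.84 in S were those of ordinary peaks. Of these peaks, 56.4% of R and 67.9% of S overlapped H3K27me3 list 2, against 46.9% and 48.7% of all positions of the same regions for peaks of the same width. With H3K27me3 list 3 it was 20.5% and 26.4%, against 11.8% and 15%. H3K27ac list 2 gave 25.6% and 30.2%, against 29.1% and 28.4%, and H3K27ac list 3 gave 5.13% and 7.55% (2 and 4 peaks), against 1.51% and 1.91%. Ubx peaks in the Hox genes thus met both lists of H3K27me3 above the level of their own regions, and H3K27ac list 2 near that level. They also met the short H3K27ac list above it, but 2 of these peaks in R and 2 in S lie in Ubx. Peaks over all bound genes lay above their regions too. H3K27me3 list 2 met 15.9% and 14.7% of them, against 10.5% and 10.6% of positions. H3K27ac list 3 met 3.78% and 3.52%, against 1.66% and 1.75%. With H3K27me3 list 3 it was 2.33% and 2.31%, also above positions. Whether the excess in Hox genes is larger was not tested.

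The genes differed among themselves. Scr, which sets labial and first thoracic identity, had 7 and 8 peaks in R and S, of which 5 and 6 were H3K27me3-only and 0 and 1 H3K27ac-only. Antp, which sets thoracic identity, had 15 and 12 peaks, 6 and 5 of them H3K27me3-only and 4 and 1 H3K27ac-only. Abd-B, the most posterior gene, had 2 and 7 peaks, with 1 and 5 H3K27me3-only. lab had 1 and 3, of which the 1 in R carried both marks and the 3 in S carried neither, pb had 2 and 5, and Dfd had 1 and 4. abd-A, which neighbours Ubx, had 1 and 1. The regions differ in length, from 12593 bp for Dfd and 19164 bp for lab to 79804 bp for Ubx and 104976 bp for Antp. Control H3K27me3 lists covered 38.3% to 94.1% of 7 of the 8 regions and 26.7% to 75.6% of pb, whereas wild-type lists 2 and 3 covered 17.0% to 45.8% and 3.09% to 20.5%.

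Inside the Ubx gene, on 3R from 16656623 to 16734426, the peaks of R and S numbered 10 and 13. By the wild-type lists, H3K27me3-only peaks were 4 and 5 of them, peaks with both marks 3 and 6, H3K27ac-only peaks 0 and 1, and unmarked peaks 3 and 1. The unmarked and H3K27ac-only classes did not hold with control H3K27me3 lists 1 and 2. The other classes were not set against control lists here. Every unmarked peak and the H3K27ac-only peak lay inside H3K27me3 peaks of control lists 1 and 2. Those lists covered 84.02% and 89.41% of the gene region. H3K27me3 control list 3 covered 38.32% and met only some of these Ubx peaks. Peaks of R and S coincided at 2 places. The first, about 30.3 kb downstream of the TSS, is the intron printed above, where both H3K27me3 lists and no H3K27ac list had a peak. The second, about 75.5 kb downstream, carried peaks of all 4 mark lists, with folds of 1.97 in R and 2.81 in S. Near the TSS, R had a peak 1.18 kb and S one 1.67 kb downstream, which did not overlap each other but both met all 4 mark lists. H3K27ac list 3 had only 2 peaks in the whole gene region, and both coincided with these Ubx sites.

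**Figure D4:**
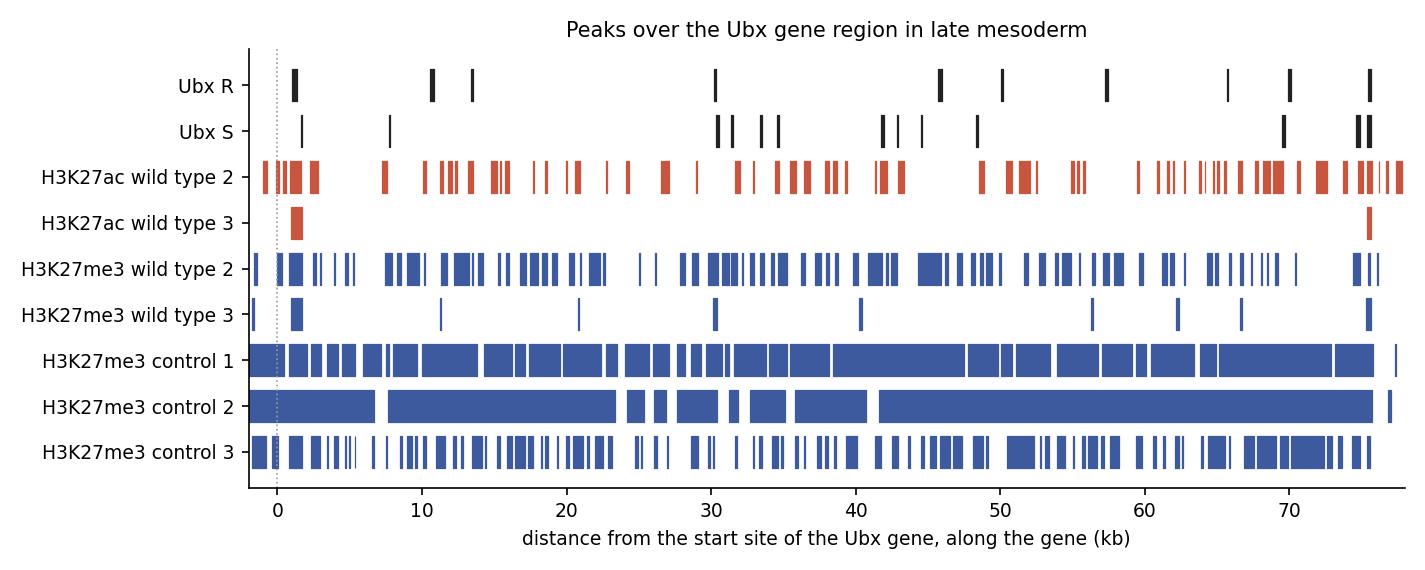
Peaks over the Ubx gene region by distance from its TSS along the gene (kb, x axis), to scale with a thin outline: Ubx R and S (black), wild-type H3K27ac lists 2 and 3 (red), wild-type H3K27me3 lists 2 and 3 and control H3K27me3 lists 1 to 3 (blue). Both Ubx lists have peaks near 1, 30 and 75.5 kb, and both H3K27ac list 3 peaks lie at Ubx sites, near 1 and 75.5 kb.

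H3K27me3-only peaks were also found at known Ubx targets and developmental regulators, in shares to be read against 6.38% of all bound genes and 17.0% of the 658 longest. Of 23 known targets 15 were bound, where 18.8% of all genes were. H3K27me3-only peaks were found in 8 (Dll, Antp, Ubx, vg, svp, kn, dpn and Wnt4), H3K27ac-only peaks in 3 (Antp, sca and Wnt4). Antp and Ubx are also members of the Hox list. Dll, the limb gene that Ubx represses in the abdomen, had 5 and 4 peaks in R and S, 3 and 3 of them H3K27me3-only and none H3K27ac-only. dpp, a BMP ligand activated by Ubx in the visceral mesoderm, had 5 and 3 peaks, with no class in both lists, and wg, its Wnt partner there, had 2 in R, both H3K27me3-only, and 0 in S. Ubx bound 20 of the 34 identity factors of mesoderm and muscle, again against 18.8% of all genes. Of these, 10 had H3K27me3-only peaks (among them twi, Mef2, byn, lbl, tup, eya and zfh1) and 4 had H3K27ac-only peaks (twi, Mef2, Hand and how). The regions of the known targets and of these factors are long, with medians of 18611 and 10374.5 bp, against 4164.5 bp over all genes. Shares of bound genes were not matched for length. twi had 7 and 12 peaks, of which 2 and 3 were H3K27me3-only and 3 and 2 H3K27ac-only. Mef2, which drives muscle differentiation, had 7 and 12 peaks, of which 1 and 5 were H3K27ac-only, 1 and 2 H3K27me3-only and 4 and 5 unmarked, and the cardiac factor tin had none. H3K27me3 list 2 met 46.2% and 44.4% of the Ubx peaks in these 34 regions, against 31.1% and 32.5% of their positions. The regions of these lists were themselves more marked than most, with 25.6% (known targets) and 33.4% (mesoderm factors) covered by H3K27me3 list 2, against 4.37% of all genes.

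Regulators of other germ layers had such peaks too, against the same 6.38% of all bound genes. H3K27me3-only peaks were found in 7 of 16 bound neuronal identity factors (pros, dpn, tup, en, zfh1, ey and dac) and in 6 of 11 bound ectoderm and segmentation genes (en, inv, hh, opa, Dll and salr). pros, which acts in neural progenitors, had 6 and 12 peaks, 2 and 3 of them H3K27me3-only, en had 1 and 2, all H3K27me3-only, and elav had none. Over the ectoderm list, H3K27me3 list 2 met 60.5% and 59.5% of peaks, against 45.9% and 50.7% of positions. Over the neuronal identity factors it met 52.9% and 34.4%, against 37.4% and 34.98% of positions, so there only the peaks of R lay above their regions.

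In genes of differentiated cells and of signalling, as over all bound genes, more genes had H3K27ac-only than H3K27me3-only peaks (35.4% and 6.38% of all bound genes, 51.4% and 17.0% of the 658 longest). H3K27ac-only peaks were found in 6 of 9 bound muscle differentiation genes (Tm1, Msp300, Zasp52, flr, mew and kon, which build or attach the sarcomere) and H3K27me3-only peaks in Msp300 alone. The myosin heavy chain gene Mhc had 0 and 2 peaks. H3K27ac list 2 met 50% and 39.6% of the peaks of R and S in these 28 regions, against 34.8% and 31.8% of their positions. Of 17 bound signalling genes, 10 had H3K27ac-only peaks (tkv, Mad, Wnt4, fz, fz2, ptc, Egfr, pnt, bnl and ths) and 3 H3K27me3-only peaks (Wnt4, hh and ths). H3K27ac-only and H3K27me3-only peaks were found in 5 and 0 of 11 neuronal differentiation genes, in 3 and 0 of 7 myoblast fusion genes, in 3 and 0 of 7 hemocyte genes and in 2 and 2 of 6 gut and visceral mesoderm factors. They were found in 1 and 1 of 3 glial genes, 1 and 0 of 3 Polycomb and Trithorax group genes and 1 and 0 of 3 ribosomal protein genes. Of the ribosomal protein genes only 3 of 92 were bound, against 18.8% of all genes, and their median region was 3315 bp. Of the cofactors, exd had 1 and 1 peak, both H3K27ac-only, and hth 18 and 19, of which 7 and 9 were H3K27ac-only and 2 and 3 H3K27me3-only. Over all bound genes H3K27ac list 2 met 40.5% and 39.1% of Ubx peaks, against 31.8% and 32.3% of positions, and H3K27me3 list 2 15.9% and 14.7%, against 10.5% and 10.6%, so values above those of the region were also found over all bound genes.

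**Figure D5:**
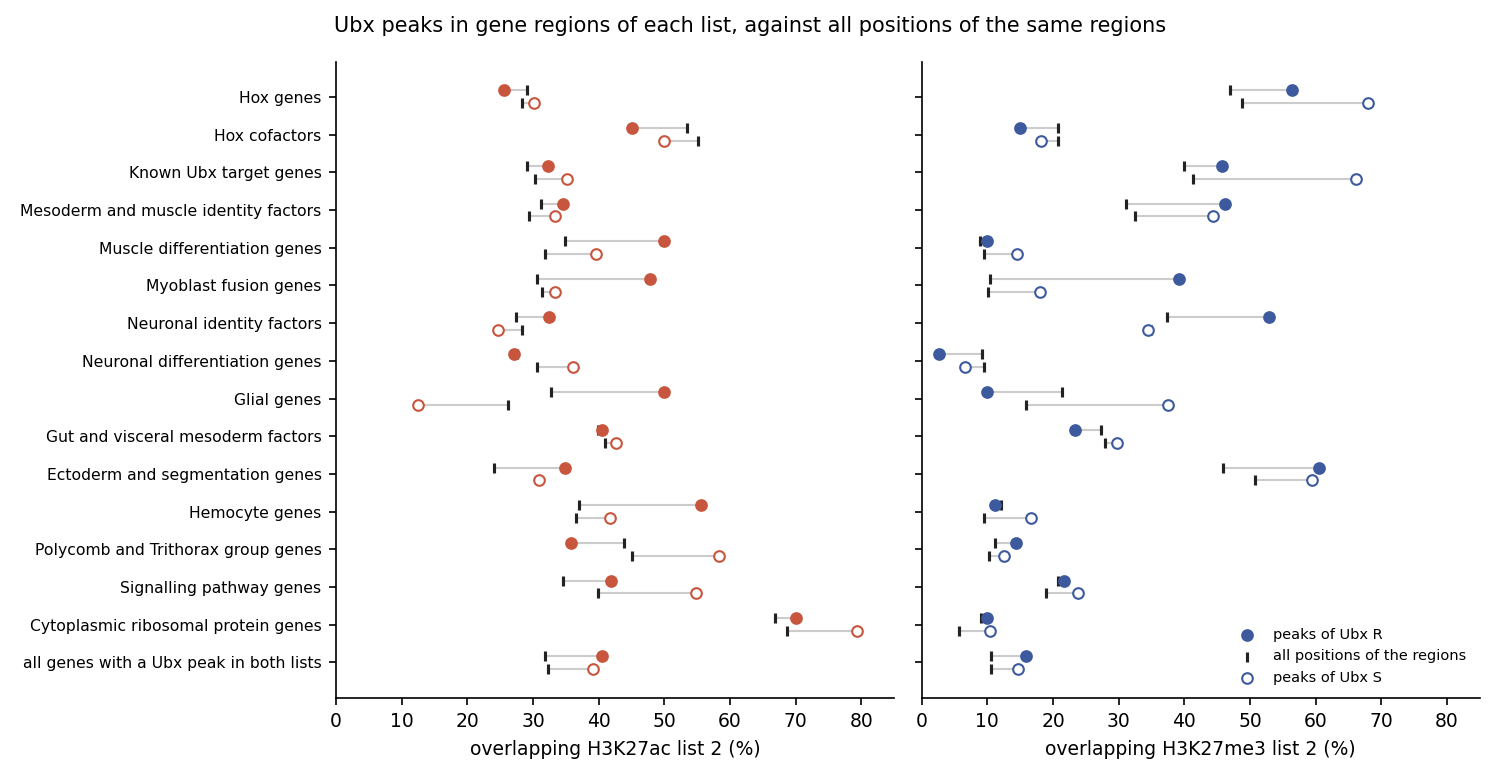
Percent of Ubx peaks in the gene regions of each list (rows) that overlap H3K27ac list 2 (left) or H3K27me3 list 2 (right), for Ubx R (filled) and Ubx S (open), with vertical ticks for all positions of the same regions. In the right panel the peaks of Hox genes (56.4% and 67.9%) and of ectoderm genes (60.5% and 59.5%) lie far to the right of those of all bound genes (15.9% and 14.7%), and so do their ticks.

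Genes were also ranked by their peaks of each class, by the lower of the Ubx lists. Among genes of the lists, H3K27ac-only peaks were most numerous in hth, fz2, a Wnt receptor (8 and 5 in R and S), ush, a zinc-finger cofactor of blood and heart (5 and 5), how, an RNA-binding protein of muscle and tendon (3 and 6), and tkv, a BMP receptor (3 and 6). Unmarked peaks were most numerous in hth (8 and 6), the adhesion genes Fas3 (8 and 5) and Dscam1 (6 and 5), Mef2 (4 and 5) and Pxn (4 and 4). Peaks with both marks were most numerous in Ubx (3 and 6), kirre, an adhesion gene of muscle founder cells (5 and 3), Antp (2 and 2), inv (2 and 1) and ss (1 and 3). Over all genes the unmarked class was led by Myo81F (65 and 60), Pzl (24 and 25), bru3 (24 and 18), lovit (20 and 13) and sick (13 and 20), and H3K27ac-only peaks by Myo81F (31 and 21), Pzl (14 and 9), jing (7 and 9) and heph (7 and 7) besides hth. Myo81F and Pzl, whose regions span 1967857 and 711421 bp on 3R, had 30 and 22, and 13 and 8 repeat peaks. H3K27me3-only peaks were most numerous in Scr, Antp, Ubx, Myo81F (9 and 5) and Ptp61F, a tyrosine phosphatase gene (5 and 6). Pde9 on X and ORY on Y had both marks on 8 and 8 and on 4 and 4 peaks, of which 8 and 8 and 4 and 4 were repeat peaks.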

How the data were processed

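Only peak lists were used, 1 for each library, plus a combined Ubx list as an alternative. The submitters' processing notes name FastQC, Bowtie, MACS2 and the build dm6; versions, parameters, depth and the use of inputs are not given in the sources used here. Each is in the broadPeak layout. The authors deposited for each peak a fold, a ratio over background within a library. The other columns deposited by the authors are a score and 2 columns of −log10 p and q. They served only inside a list, to describe or select peaks, and the read depth behind them is unknown.

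Peaks on 2L, 2R, 3L, 3R, X, 4 and Y were kept. Coordinates were checked against the RefSeq release of the same assembly, where 3 peaks of the 21 lists used ended past an arm, by at most 71 bp. Genes came from the Ensembl annotation. Of 282 names in the fixed lists, 9 had no gene, and ribosomal protein genes were added by symbol. Overlap was computed with numpy 2.4.6 and scipy 1.17.1 under Python 3.11.15 and tested on simulated lists, with pandas 2.3.3 for tables. Comparisons are exact two-sided permutation tests over lists with Benjamini-Hochberg adjustment over 6. Shifted positions and positions of gene regions are descriptions with no test. Named genes were the Hox genes, 12 further regulators and markers (exd, hth, twi, Mef2, tin, Mhc, dpp, wg, Dll, en, elav and pros) and, for each class, up to 5 genes of the lists and up to 5 of all genes with most peaks by the lower Ubx list. Members, lists and rules were chosen with earlier results of these data known. The values on single peaks of Hox genes, on positions within gene regions, on arms and on 100-kb stretches were added after seeing the data.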

Additional observations from a re-analysis of the deposited data

Results flagged for a closer look

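The lean of Ubx peaks to one mark went opposite ways with the 2 sets of late mesoderm mark lists. H3K27ac minus H3K27me3 in log2 overlap over shifted positions was -0.47 and -0.18 with the wild-type lists 2 and 3 and 0.014, 0.15 and 0.27 with the control lists 1 to 3, a difference of -0.47 between wild type and control. An exact permutation test over the 5 pairs of lists gave p = 0.1, the smallest it can give. All wild-type values were below 0 and all control values above it, but that of control number 1 was near 0 and its sign depended on the Ubx list. With control number 1, the log2 overlap of Ubx R was 0.59 for H3K27ac and 0.64 for H3K27me3. That of Ubx S was 0.69 and 0.61. Control embryos also differ from wild type by GFP-Ubx and UAS-Nslmb, and the mark lists differ in covered length, and these cannot be told apart here.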

How the results depend on the processing

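The direction of both enrichments, of the differences from late neuronal Ubx and of those from Pho was kept under every alternative run, but not their size. Log2 overlap with H3K27ac and H3K27me3 was 0.77 and 0.92 without repeat peaks, 1.51 and 1.97 with the better-scored 0.5 of peaks and 2.10 and 2.27 with mark lists trimmed to equal length, where the difference from late neuronal Ubx was -2.57 and -2.44 and that from Pho 1.45 and 1.51. With the control mark lists these differences were -0.75 and -0.74, and 0.096 and 0.036. There the log2 overlap with H3K27me3 was 0.52 and H3K27ac minus H3K27me3 turned to 0.15 (exact p = 0.2). Taking lists of 1 number as pairs (replicate block), the difference stayed at -0.32 (exact sign-flip p = 0.5), and with control lists and the block it was 0.15 (p = 0.25); the labels list 1 input per number for both marks but do not say that a number is 1 preparation. The difference from early mesoderm Ubx turned to 0.018 for H3K27me3 without repeat peaks, and to 0.022 (H3K27ac) and 0.054 (H3K27me3) without repeat peaks and with shifts of 10 to 100 kb, the last added after seeing the data. The cause was not tested.

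Lists were left out in turn, 1 Ubx or Pho list at a time, or 1 number of both marks together. The log2 overlap then ranged from 0.42 to 1.92 (H3K27ac) and 0.89 to 2.10 (H3K27me3), and the difference between marks from -0.47 to -0.18. The difference from early mesoderm ranged from -0.51 to 0.13 and -0.54 to 0.28. The difference from late neuronal Ubx ranged from -2.36 to -0.63 and -2.40 to -1.33, and that from Pho from 0.19 to 0.99 and 0.56 to 1.12. Genes ranged from 48 to 2981 (H3K27ac-only), 40 to 701 (H3K27me3-only), 32 to 611 (both marks) and 1298 to 3390 (neither). Without 1 late mesoderm Ubx list, a gene needs a peak of the class in the other list only.

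Gene counts moved most, given here as H3K27ac-only, H3K27me3-only, both and neither, where they changed by over 1.5 times. They were 354, 57, 104 and 510 with the better-scored 0.5 of peaks, 60, 74, 63 and 2386 with mark lists trimmed to equal length, 4227, 1067, 951 and 4738 with the combined Ubx list, which needs 1 list only, 41, 28, 31 and 2487 with both lists of a mark required, and 176, 8, 34 and 105 in TSS windows. The last 3 were 275, 521 and 850 with control marks. H3K27me3-only and both were 101 and 98 with 0.5 of the peak covered and 109 and 98 by the midpoint, and both was 100 without repeat peaks. With 2 or 3 lists a group no test can pass 0.05, and read depth is unknown.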

Other observations

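The overlap with the marks did not follow 1 direction over the fold of a Ubx peak. With Ubx R in 5 bins of equal size by fold, in the lowest bin (up to 1.97), 51.2% of peaks overlapped H3K27ac list 2 and 33.5% H3K27me3 list 2, and in the other bins, from low to high fold, 33.4%, 36.5%, 37.95% and 40.7% overlapped H3K27ac list 2 and 16.7%, 17.0%, 16.7% and 23.1% H3K27me3 list 2. The lowest bin thus lay highest, and the highest bin lay above the 3 between. For Ubx S the lowest bin gave 43.9% and 27.1% and the highest 39.6% and 21.2%. Repeat peaks made up 27.7% and 18.8% of the lowest bins and 16.9% and 13.5% of the highest. By the authors' score, the better-scored 0.5 of each Ubx list had the larger enrichment, with 2.55-fold and 2.10-fold for H3K27me3 list 2 and 7.29-fold and 5.98-fold for list 3, against 1.97-fold, 1.74-fold, 4.61-fold and 4.0-fold over all peaks. Without repeat peaks the lowest bin of R stood at 40.5% and 21.0% and the other 4 bins between 33.7% and 37.3% and between 15.3% and 16.0%.

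Among the 1191 regions where a peak of R overlaps one of S, both marks of number 2 lay on 48.0%, H3K27ac alone on 16.9%, H3K27me3 alone on 10.4% and neither on 24.7%. Over all peaks of R the shares by number 2 were 11.7%, 28.3%, 9.74% and 50.3% in the same order, and over those of S 9.47%, 29.5%, 9.12% and 51.9%. Among the 605 regions that are under 0.5 soft-masked, the shares were 15.5%, 27.4%, 14.7% and 42.3%. Over all peaks of R without repeat peaks they were 6.66%, 29.4%, 10.0% and 53.9%, and over those of S 5.71%, 30.7%, 9.37% and 54.3%.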
